A study of Mus musculus with 6 samples.

Results

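*Actg1*, *Actn4* and *Pls3* are 3 of the 312 genes in a table of RNA sequencing values from mouse fat at 2 ages. They were taken by name, as the nonmuscle actin of the table and 2 of the proteins that tie actin filaments together, and all 3 passed the filter on low counts. *Actg1* (gene ID 11465) encodes cytoplasmic gamma-actin, *Actn4* (gene ID 60595) encodes alpha-actinin-4, and *Pls3* (gene ID 102866) encodes plastin-3, also called T-plastin. The libraries come from mice at postnatal day 6 (P6, infant) and at postnatal day 56 (P56, adult), with 3 libraries per age and no treatment at either age. The methods of the study give C57BL/6 mice, an inbred strain, and name whole inguinal fat depots. The labels of the samples instead call the material macrophages of adipose tissue, so the source is not certain. Nothing states whether a library holds 1 animal or a pool, so the *p*-values measure the spread between these libraries.

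Actin is the protein that polymerizes into the thin filaments of every animal cell. Nonmuscle actins build the cortex under the cell membrane, the stress fibers and the protrusions with which a cell moves or engulfs particles. Alpha-actinin-4 is a dimer with an actin-binding site at each end that spaces filaments loosely along stress fibers and at adhesions, and plastin-3 is a single chain with paired actin-binding domains that packs filaments into tight bundles. Fat holds adipocytes, fibroblasts, vessel walls and macrophages, and each of these uses nonmuscle actin.

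The label could not be checked against marker genes, because none of 14 macrophage markers and none of 9 adipocyte markers was among the 312 genes. The table did hold 6 of 12 markers of smooth muscle and pericytes, the contractile cells of vessel walls, and 2 of 8 of skeletal muscle. Over the whole libraries, the relative sequencing depth, recovered from the ratio of read count to FPKM, was 1.09 to 1.16 at P6 and 0.795 to 0.937 at P56. Counts divided by this depth are called depth-scaled counts. Replicate 3 of P56 was farther from its own group than any other library, with a chi-square per gene of 44.9 and 22.6 against the other P56 libraries, while the other pairs of the same age lay between 8.63 and 9.83. Calls of *Actg1*, *Actn4* and the listed actin genes that depend on this library are given with and without it. The deposited table is named for differentially expressed genes, for which the study's methods name DESeq2 and a *p* threshold of 0.05. Whether its rows meet that threshold was not tested here, and shares of the 312 genes do not stand for all genes of the tissue.

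The actin genes resemble each other closely at the level of bases, which bears on how reads are assigned to *Actg1*. The first 60 coding bases of *Actg1* are shown beside those of *Actb*, the cytoplasmic beta-actin gene, which was not among the 312, and of the muscle actins of the table, *Acta2* of smooth muscle and *Acta1* of skeletal muscle. The stretches come from the GENCODE M21 transcripts, run 5′ to 3′, and are set against each other by counting back from the stop codon, so that the muscle actins, which are longer at the start, show 66 bases. Capitals mark bases that differ from *Actg1* or lie before its first base.
Actg1: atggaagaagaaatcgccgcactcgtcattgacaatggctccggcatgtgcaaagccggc
Actb: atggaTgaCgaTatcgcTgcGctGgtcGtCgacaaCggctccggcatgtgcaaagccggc
Acta2: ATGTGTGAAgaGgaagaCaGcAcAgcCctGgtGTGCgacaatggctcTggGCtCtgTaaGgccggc
Acta1: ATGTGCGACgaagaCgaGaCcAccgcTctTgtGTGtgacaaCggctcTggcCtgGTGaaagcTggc

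*Actb* differed from *Actg1* at 9 of these 60 bases, *Acta2* at 20 and *Acta1* at 19. Over the whole coding length of 1128 bases, 88.7% of bases were identical in *Actb*, 83.8% in *Acta1* and 81.6% in *Acta2*. Of all stretches of 50 bases in the longest coding transcript of *Actg1* (1952 bases), 56.7% also occurred in a transcript of another gene, and 51.1% occurred in a single processed pseudogene, Gm12715, whereas 1.58% occurred in *Actb*. At 100 bases the shares were 51.1% for any other gene and 0% for *Actb*. In *Actn4*, 7.39% of stretches of 50 bases were shared, nearly all of them with *Capn12*, a gene on the opposite strand whose end overlaps *Actn4* by 316 bases. In *Pls3*, no stretch of 50 bases was shared. All counts of the 3 genes were whole numbers, while 23 of the 312 genes had a fractional count in some library. The deposited estimates of the 3 genes thus show no division of single reads between genes. The sources used here do not say whether the authors' reference contained the pseudogenes, and this was not tested. The level of *Actg1* is uncertain to that extent.

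*Actg1* was the most abundant of the 3 genes and of the whole table. Its level in TPM (each gene's share of a library's transcripts, corrected for length and brought to a common total) was 3423, 3256 and 3362 at P6 and 4029, 3934 and 3529 at P56. *Actg1* ranked first of 312 genes in each of the 6 libraries, ahead of *Cyr61*, a matricellular protein, with a mean of 1376 TPM over the 6 libraries. The TPM of *Actn4* was 401, 347 and 367 at P6 and 382, 352 and 335 at P56, which placed it between rank 12 and rank 15 in each library. The TPM of *Pls3* was 84.3, 78.0 and 78.6 at P6 and 90.7, 94.4 and 78.8 at P56, between rank 53 and rank 58. The order of *Actg1* over *Actn4* over *Pls3* held in every library, and no values of neighbours in that order overlapped. Averaged over the 6 libraries, *Actg1* had 9.86 times the TPM of *Actn4* and 42.7 times that of *Pls3*.

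Between the ages, the 3 genes moved little. On depth-scaled counts, the libraries of the 2 ages overlapped for *Actg1* and *Pls3*, and *Actn4* was slightly higher at P6 without passing the threshold. With edgeR's quasi-likelihood test at the recovered depth, 0 of the 3 genes passed an adjusted *p* of 0.05, whereas 64.2% of the 310 genes tested did. At an unadjusted *p* under 0.05 the count was 1 of 3, *Actn4*, beside 67.1% of all tested genes. DESeq2 at the same depth also called 0 of the 3, and 63.9% of all tested genes. Limma on log2(TPM + 1) called 0 of the 3, where 61% of 300 genes were called and 36.3% were called lower at P6.

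*Actg1*, the actin itself, stood at 46377, 44501 and 46905 depth-scaled counts at P6. At P56 it stood at 49376, 49016 and 46744. The values were mostly lower at P6, but P56 replicate 3 lay among the P6 libraries, so the groups overlapped. The means were 45928 ± 1263 at P6 and 48378 ± 1427 at P56 (SD, n = 3 each). The log2 fold change (P6 over P56) was −0.08 (standard error 0.065, edgeR adjusted *p* = 0.330), with a 95% interval from −0.22 to 0.07. As a ratio, the interval runs from 0.859 to 1.05. Without P56 replicate 3, the log2 fold change was −0.10 and the adjusted *p* 0.0367 (edgeR), so whether *Actg1* passed depended on that library. In that run the median of all tested genes was −0.08, and 71.3% of the tested genes were called.

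*Actn4*, the loose crosslinker, showed 10954, 9616 and 10270 depth-scaled counts for the P6 libraries, against 9404, 8787 and 8989 for the P56 libraries. Every P6 library lay above every P56 library, as it did in 33.3% of the 312 genes. The gap between the lowest P6 and the highest P56 library was narrow beside the spread within P6. The means were 10280 ± 669 at P6 and 9060 ± 315 at P56 (SD, n = 3 each), a fold of 1.13 with a 95% interval from 1.01 to 1.28. The log2 fold change was 0.18 (standard error 0.08), with an unadjusted *p* of 0.0407 and an adjusted *p* of 0.0625 (edgeR). Left out one at a time, P56 replicate 1 and P56 replicate 3 each brought the adjusted *p* under the threshold (0.0456 and 0.0264, edgeR), where 64.2% and 71.3% of all tested genes were called. Without P6 replicate 1, the highest library, the log2 fold change was 0.13 and the adjusted *p* 0.243 (edgeR).

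*Pls3*, the tight bundler, gave 1911, 1786 and 1839 depth-scaled counts at P6, compared with 1865, 1966 and 1748 at P56. The P56 libraries took both the highest and the lowest value, and the groups overlapped throughout. The means were 1845 ± 62.9 at P6 and 1859 ± 109 at P56 (SD, n = 3 each). The log2 fold change was −0.01 (standard error 0.08, edgeR adjusted *p* = 0.917), with a 95% interval from −0.19 to 0.17. Its fold lay between 0.874 and 1.13 by the same interval. A change smaller in size than that of *Pls3* was found in 1.94% of the 310 tested genes, a smaller one than that of *Actg1* in 11%, and a smaller one than that of *Actn4* in 25.5%. The median size over all tested genes was 0.40 on the log2 scale.

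**Figure D1:**
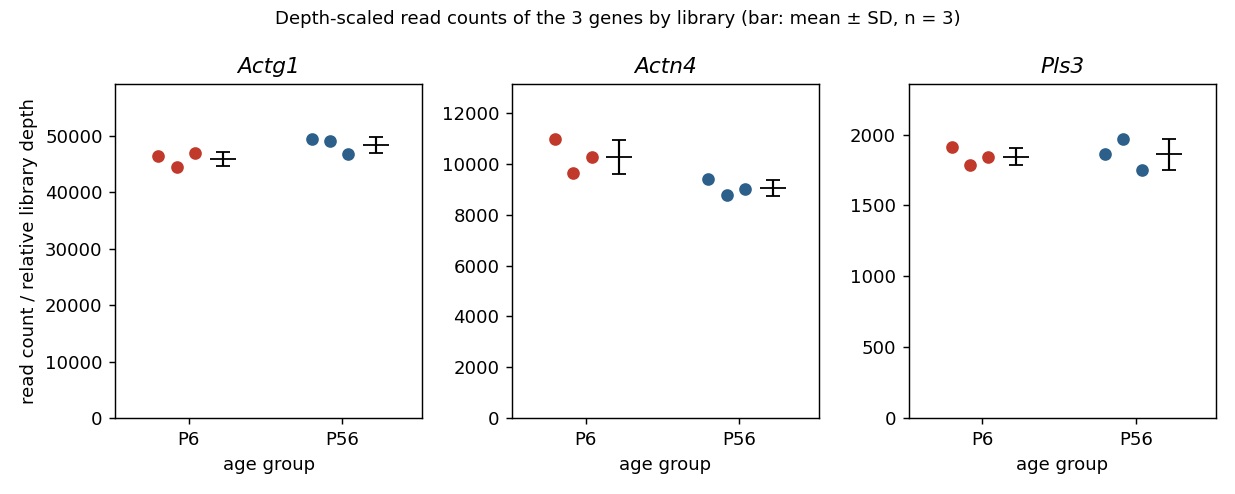
Read counts of *Actg1*, *Actn4* and *Pls3* divided by the relative depth of each library (vertical axis, starting at 0), by age group, with 1 point per library and the mean ± SD (n = 3) beside the points. The P6 points of *Actn4* lie between 9616 and 10954, all above its P56 points, while the points of the other 2 genes overlap between the ages.

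The exact permutation test over libraries cannot go below *p* = 0.1 for 3 against 3. On log2 depth-scaled counts the exact permutation test gave *p* = 0.2 for *Actg1*, 0.1 for *Actn4* and 0.9 for *Pls3* (two-sided). The lowest count of *Pls3*, 1389 in P56 replicate 3, carries a counting error of 2.68% of its value, beside an SD between libraries of 3.41% of the mean at P6 and 5.86% at P56. For *Actg1* the counting error at its lowest count was 0.519%, beside an SD of 2.75% and 2.95%, and for *Actn4* it was 1.18%, beside 6.51% and 3.47%.

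The direction of change of *Pls3* depended on how the libraries were scaled, and that of *Actg1* was reversed only with equal library sizes. With equal library sizes, where the deeper sequencing at P6 is not taken out, the mean read counts of all 3 genes were higher at P6. *Actg1* then went from 46261, 43537 and 37141 read counts at P56 to 52246, 48593 and 54494 at P6, a log2 fold change of 0.29 (edgeR adjusted *p* = 0.130). The log2 fold change of *Actn4* was 0.55 (adjusted *p* = 0.00154, edgeR) and that of *Pls3* 0.35 (adjusted *p* = 0.0450, edgeR), so 2 of the 3 were called, where 58.7% of all tested genes were called and 47.7% were called higher at P6. *Actn4* alone passed with median-of-ratios sizes (0.20, edgeR adjusted *p* = 0.0298) and with TMM on the column totals (0.20, edgeR adjusted *p* = 0.0332), and each of these called 69% of all tested genes. On TPM the order was turned round for *Actg1*, with every P6 library below every P56 library, as in 37.5% of the 312 genes. The log2 difference of *Actg1* on log2(TPM + 1) was −0.19 (95% interval −0.44 to 0.05, limma adjusted *p* = 0.158), that of *Actn4* 0.06 (adjusted *p* = 0.679) and that of *Pls3* −0.13 (adjusted *p* = 0.372). TPM and FPKM differ by 1 factor per library, and this factor was 1.99 to 2.05 at P6 and 2.10 to 2.27 at P56. An equal FPKM thus corresponds to a lower TPM at P6.

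These scalings shift all genes alike. The median log2 fold change of all tested genes was −0.03 at the recovered depth, 0.34 with equal library sizes and −0.14 on log2(TPM + 1). Relative to that median, *Actg1* lay at −0.05 under each of 5 scalings, *Actn4* between 0.20 and 0.21, and *Pls3* between 0.01 and 0.02. Since a scaling moves every gene by about the same amount, these distances follow from the way it acts and are no sign of stability.

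**Figure D2:**
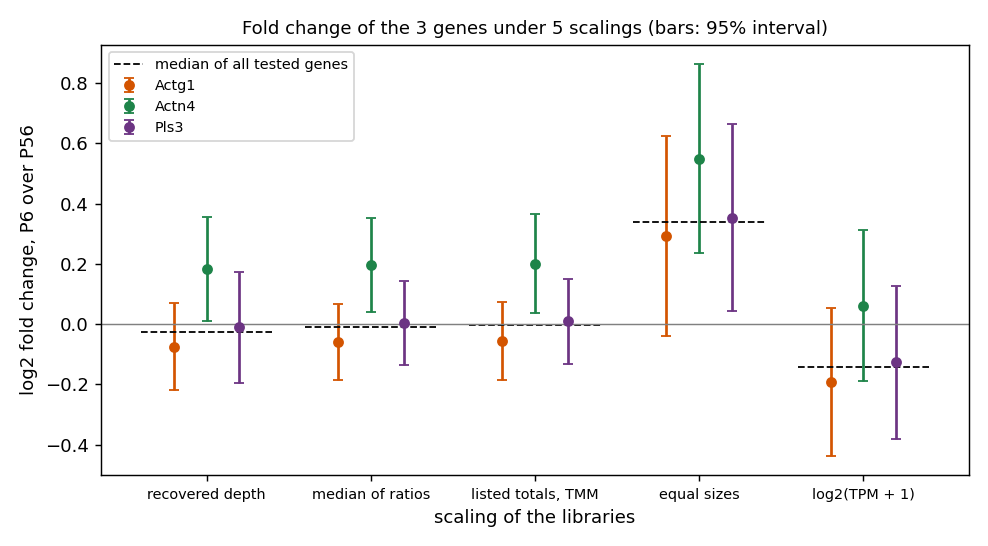
Log2 fold change, P6 over P56 (vertical axis), of *Actg1*, *Actn4* and *Pls3* under 5 scalings of the libraries (horizontal axis), with 95% intervals and a dashed line at the median of all tested genes. All 3 genes move with the dashed line, from 0.34 with equal sizes to −0.14 on log2(TPM + 1), and *Actn4* stays above it in each scaling.

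The ratio between 2 genes in the same library does not depend on depth at all. The log2 ratio of the read counts of *Actn4* to those of *Actg1* was −2.08, −2.21 and −2.19 at P6 and −2.39, −2.48 and −2.38 at P56. Each P6 library thus held more *Actn4* per *Actg1* than each P56 library, by 0.26 on the log2 scale or 1.19-fold on average. The exact permutation test gave *p* = 0.1, the smallest that 3 against 3 allows, and 0.15 after adjustment over the 3 ratios tested. The log2 ratio of *Pls3* to *Actn4* was −2.52, −2.43 and −2.48 at P6 and −2.33, −2.16 and −2.36 at P56. The P6 libraries lay below the P56 libraries without overlap, by 0.19 on the log2 scale (difference −0.19, exact permutation *p* = 0.1, adjusted 0.15). Both ratios without overlap contain *Actn4*. How many other pairs of genes separate the ages in this way was not counted. Of the 312 single genes, 33.3% had every P6 library above and 33.7% every P6 library below on depth-scaled counts. The log2 ratio of *Pls3* to *Actg1* was −4.60, −4.64 and −4.67 at P6 and −4.73, −4.64 and −4.74 at P56. Here P56 replicate 2 lay among the P6 libraries, and the difference of 0.06 was of the size of the SD at P56 (0.05, exact permutation *p* = 0.2, adjusted 0.2).

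**Figure D3:**
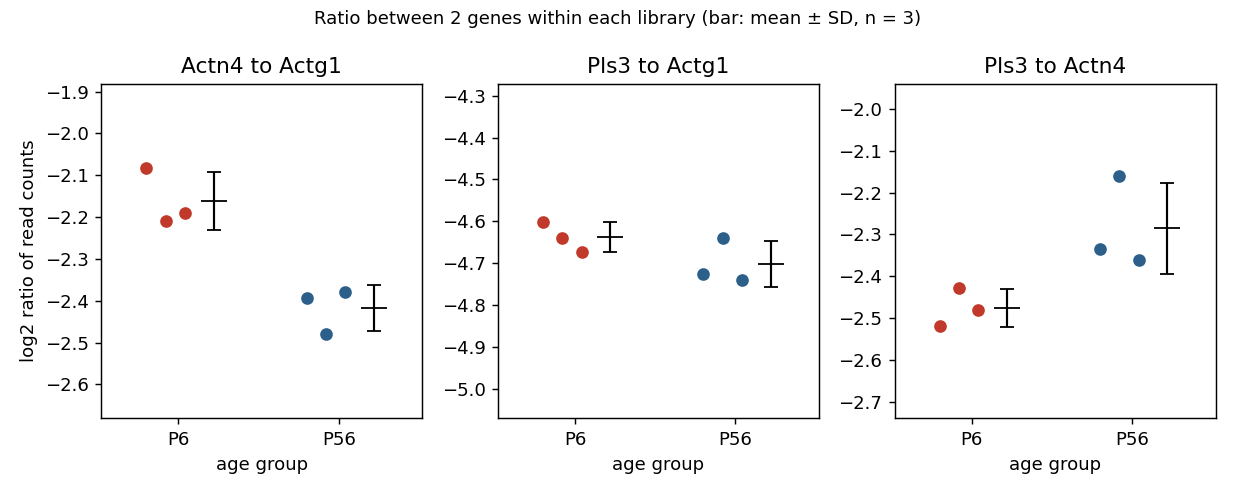
Log2 ratio of read counts between 2 genes within each library (vertical axes, each spanning the same range), by age group, with 1 point per library and the mean ± SD (n = 3) beside the points. The ratio of *Actn4* to *Actg1* lies between −2.21 and −2.08 at P6, above all P56 libraries, and the ratio of *Pls3* to *Actg1* overlaps between the ages.

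Per length, these ratios say how many transcripts of *Actg1* there were for each transcript of a crosslinker. The TPM of *Actg1* was 8.53, 9.38 and 9.16 times that of *Actn4* at P6 and 10.5, 11.2 and 10.5 times at P56. Against *Pls3* it was 40.6, 41.8 and 42.8 times at P6 and 44.4, 41.7 and 44.8 times at P56. The spread of the second ratio left the ages overlapping, and that of the first did not.

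Beside *Actg1*, the table listed 2 muscle actins, and these changed in opposite directions. *Acta2*, the actin of smooth muscle, was measured at 608, 405 and 453 TPM for the P6 libraries, beside 310, 263 and 318 TPM for the P56 libraries. It was higher at P6, with a log2 fold change of 0.83 (standard error 0.14, edgeR adjusted *p* = 0.000356). *Acta1*, the actin of skeletal muscle, was measured at 151, 165 and 173 TPM for the P6 libraries, beside 562, 551 and 542 TPM for the P56 libraries. *Acta1* was lower at P6, with a log2 fold change of −1.64 (standard error 0.09, edgeR adjusted *p* = 9.84e-08). On depth-scaled counts, unlike *Actg1*, neither muscle actin overlapped between the ages. Across the 312 genes, 33.3% had every P6 library above, as *Acta2* did, and 33.7% every P6 library below, as *Acta1* did. *Actg1* made up 81.9%, 85.1% and 84.3% of the TPM of the 3 listed actins at P6 and 82.2%, 82.9% and 80.4% at P56, a share chosen for description after the values were seen. The share of *Acta2* was 10.6% to 14.5% at P6 and 5.55% to 7.25% at P56, and that of *Acta1* 3.60% to 4.34% and 11.5% to 12.3%.

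**Figure D4:**
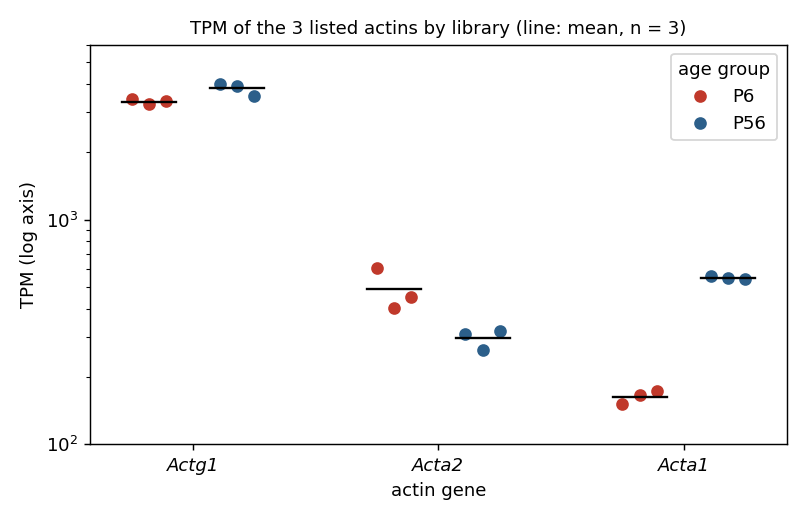
TPM of *Actg1*, *Acta2* and *Acta1* in each library (vertical axis, logarithmic), with 1 point per library, colored by age group, and a line at the mean (n = 3). *Actg1* lies at or above 3256 TPM in every library, *Acta2* is higher at P6 and *Acta1* is higher at P56.

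Both muscle actins also stand in the lists of cell type markers. Of the 5 other listed markers of smooth muscle and pericytes, *Tagln*, *Cnn1* and *Mcam* were higher at P6, where 30.3% of all tested genes were higher and 33.9% lower, and *Cspg4* (log2 fold change 0.23, edgeR adjusted *p* = 0.237) and *Lmod1* (−0.23, adjusted *p* = 0.282) did not pass. The summed TPM of the 6 markers, *Acta2* included, was 908 to 1277 at P6 and 635 to 757 at P56. The other listed marker of skeletal muscle, *Neb*, the giant ruler protein of thin filaments, averaged 0.187 TPM at P6 and 0.683 TPM at P56 and fell by 1.73 on the log2 scale (edgeR adjusted *p* = 2.67e-05). The only listed fibroblast marker of 10, *Col6a3*, had 590 to 623 TPM at P6 and 488 to 731 at P56. The part of such cells in the values of *Actg1*, *Actn4* and *Pls3* was not tested. In RNA from mixed tissue, fewer cells of a type and less RNA per cell cannot be told apart.

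The transcription factor SRF, whose cofactors are freed when actin monomers become scarce, binds a CArG box (CC, then 6 bases that are A or T, then GG) in many actin and contractile genes. The stretches before the starts of the 3 listed actins are shown because these genes share a family and moved differently. They are 250 bases each from RefSeq's table for GRCm38.p6, on the minus strand, printed 5′ to 3′ up to the base before the start. *Actg1* is at chr11:120348496-120348745, *Acta2* at chr19:34255374-34255623 and *Acta1* at chr8:123894776-123895025. The sources used here do not name the build of the authors' files, and no value was read by coordinates. Capitals mark the CArG box or, in *Acta2*, the first window among those closest to one.
Actg1: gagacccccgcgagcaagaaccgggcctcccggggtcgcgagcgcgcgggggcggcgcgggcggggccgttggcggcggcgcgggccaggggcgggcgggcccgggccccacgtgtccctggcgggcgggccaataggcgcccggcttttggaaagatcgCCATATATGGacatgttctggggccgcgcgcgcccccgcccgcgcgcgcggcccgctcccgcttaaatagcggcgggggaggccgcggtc
Acta2: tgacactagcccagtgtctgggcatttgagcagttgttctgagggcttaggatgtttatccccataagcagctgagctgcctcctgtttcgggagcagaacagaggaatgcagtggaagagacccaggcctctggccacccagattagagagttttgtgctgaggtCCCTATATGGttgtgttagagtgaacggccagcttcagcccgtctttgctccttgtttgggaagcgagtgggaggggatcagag
Acta1: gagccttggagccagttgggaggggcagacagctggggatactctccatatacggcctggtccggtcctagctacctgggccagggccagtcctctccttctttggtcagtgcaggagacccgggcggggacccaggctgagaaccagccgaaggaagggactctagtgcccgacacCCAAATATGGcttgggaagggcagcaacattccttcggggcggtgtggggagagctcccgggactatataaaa

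*Actg1* and *Acta1* each held 1 exact CArG box, which begins 90 and 73 bases before the start. *Acta2* held a window with 1 mismatch that begins 84 bases before the start. Another window of *Acta2* with 1 mismatch, ccttgtttgg, lies nearer the start and is left in lower case. *Acta1* also holds windows with 1 mismatch, ccatatacgg and ccttctttgg. They lie farther from the start than its exact box and are left in lower case as well. The single start of *Actn4* and the 3 starts of *Pls3* in the same table held no exact box. Of 32851 such windows in the mouse, 1.47% held one. Counted by gene over all its starts, a box was found in 1.62% of 27025 mouse genes, in 4.55% of the 242 genes of the table with a matching window, and in 5 of 24 (20.8%) of the listed actin cytoskeleton genes with one (*Actg1*, *Acta1*, *Myl6*, *Myl9* and *Vcl*). The pattern reads the same on both strands, so 1 search covers both, and no other motif was searched. A match is a description of these letters only.

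A list of 166 genes of the actin cytoskeleton, set by role, placed *Actg1*, *Actn4* and *Pls3* beside their partners. The table held 27 of the 166, 24 of them beside the 3 genes, and none of the 31 nucleators or the 6 genes of transcriptional control by actin. Of the 24, 9 were higher at P6, 6 were lower at P6 and 9 did not pass the test (edgeR at the recovered depth). These are 37.5% higher and 25.0% lower, beside 30.3% and 33.9% of all 310 genes tested. The median log2 fold change of the 24 was 0.12, and that of all tested genes −0.03. With equal library sizes 15 of the 24 were higher and 2 lower, beside 47.7% higher and 11% lower of all tested genes. On log2(TPM + 1) 6 were higher and 6 lower, beside 24.7% and 36.3%. Without P56 replicate 3, *Myl6* (log2 fold change 0.20, edgeR adjusted *p* = 0.0206) and *Tln1* (−0.16, edgeR adjusted *p* = 0.0347) passed as well, and no call among the 24 was lost.

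Among the other crosslinkers, *Flna* and *Flnc*, which join filaments into loose orthogonal nets, did not pass at the recovered depth. The log2 fold change was 0.23 for *Flna* (standard error 0.10, adjusted *p* = 0.0685) and 0.09 for *Flnc* (standard error 0.15, adjusted *p* = 0.601), both from edgeR. Both passed with equal library sizes, at 0.59 and 0.44 (edgeR adjusted *p* = 0.000834 and 0.0113). *Anln*, which encodes anillin, the scaffold of the contractile ring in dividing cells, was higher at P6 by 1.95 on the log2 scale (standard error 0.12, edgeR adjusted *p* = 2.52e-07). The spectraplakin *Macf1*, which links actin to microtubules, was lower at P6 by 0.38 on the log2 scale. Utrophin (*Utrn*), which links actin to the membrane, was lower at P6 by 0.30. These values were, with equal library sizes, −0.02 for *Macf1* and 0.07 for *Utrn*, and neither passed.

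Among the motors and their filaments' side proteins, *Myh10*, the heavy chain of nonmuscle myosin IIB, was higher at P6. The difference was 0.74 on the log2 scale (standard error 0.10, edgeR adjusted *p* = 7.89e-05). *Myl9*, a regulatory light chain, was higher at P6 by 0.61, and the membrane-bound motor *Myo1d* by 0.38. *Myo1c*, of the same class, was lower at P6 by 0.30 at the recovered depth and had 0.07 with equal library sizes, where it did not pass. The light chain *Myl6* (0.09, −0.01 on log2(TPM + 1)), *Myo9a* (0.26) and *Myo10* (−0.09) did not pass at the recovered depth. With equal library sizes *Myl6* (0.47, edgeR adjusted *p* = 0.00654) and *Myo9a* (0.62, edgeR adjusted *p* = 0.000745) passed, and *Myo10* (0.26) did not. Calponin (*Cnn1*), which restrains myosin on smooth muscle filaments, was higher at P6 by 2.04 (standard error 0.21, edgeR adjusted *p* = 8.05e-06). Transgelin (*Tagln*) was higher at P6 by 0.40, with groups that overlapped. Tropomyosin *Tpm2* was lower at P6 by 0.30, with 0.08 under equal library sizes, where it did not pass.

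At the adhesions that alpha-actinin also occupies, vinculin (*Vcl*, 0.14) and talin (*Tln1*, −0.11) did not pass at the recovered depth. With equal library sizes *Vcl* passed (0.50, edgeR adjusted *p* = 0.00331) and *Tln1* did not (0.25). *Tns3*, a tensin, was higher at P6 by 0.43. *Pdlim5*, a PDZ and LIM protein that binds alpha-actinin, was lower at P6 by 1.01 on the log2 scale (standard error 0.09, edgeR adjusted *p* = 2.96e-06). *Dstn*, which severs filaments, was higher at P6 by 0.57. On log2(TPM + 1), *Tagln*, *Myo1d* and *Tns3* did not pass (limma adjusted *p* = 0.133, 0.0592 and 0.0738). On the same scale *Macf1* (−0.46), *Utrn* (−0.36), *Myo1c* (−0.42) and *Tpm2* (−0.33) passed as lower at P6. Their limma adjusted *p* was 0.00615, 0.0154, 0.00501 and 0.0267, where 36.3% of the genes tested were called lower.

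**Figure D5:**
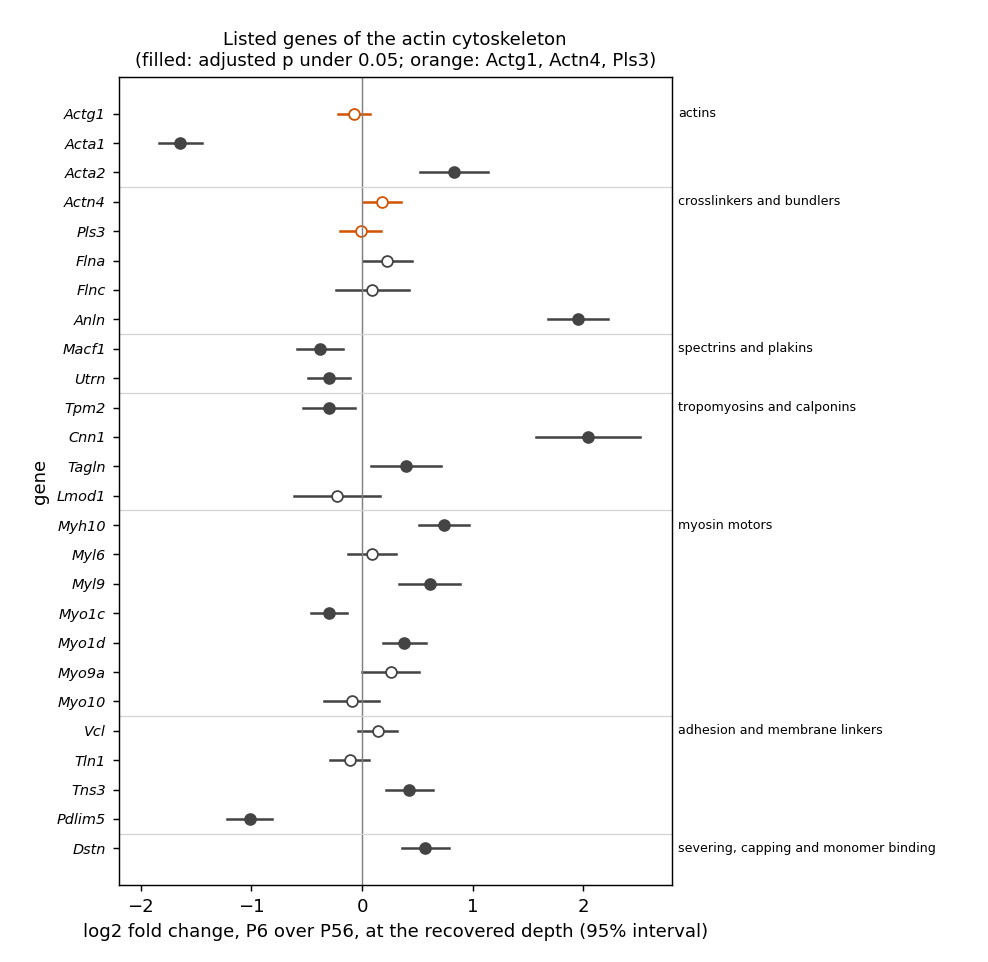
Log2 fold change, P6 over P56, at the recovered depth (horizontal axis) of listed genes of the actin cytoskeleton, ordered by role, with 95% intervals from edgeR. Filled points passed an adjusted p of 0.05. *Actg1*, *Actn4* and *Pls3*, in orange, are open and lie near 0, while *Acta1* at −1.64 and *Cnn1* at 2.04 mark the ends.

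The genes whose pattern over the 6 libraries was most like each of the 3 were found by the root mean square difference of log2 depth-scaled counts, each gene centred on its own mean. For *Actg1* they were *Cyr61* (0.025), *Fhl1*, a LIM-only protein (0.041), and *Tmem119*, a transmembrane protein (0.041), beside a median of 0.24 over 309 genes. *Cyr61* had 18850 depth-scaled counts at P6 and 19675 at P56 on average, also a small difference. For *Actn4* they were *Smtn*, a protein of smooth muscle filaments (0.044), *Rif1*, a DNA repair factor (0.057), and *Ddr1*, a collagen receptor (0.058). *Smtn* had a difference of 0.16 between the ages on the log2 scale, close to that of *Actn4*. For *Pls3* they were *Ctgf*, a matricellular protein (0.045), *Wwc2* (0.047) and *Tnpo2*, a nuclear import receptor (0.049), followed directly by *Actg1* (0.050). *Actn4* stood in 69th place for *Actg1*, so within the table its pattern was less like the actin's than that of *Pls3*, in 7th place. The 6 points of each pattern share their libraries and their depth factor, and these distances are a description.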

How the data were processed

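Poly(A) RNA was selected from total RNA with oligo(dT) and sequenced on a BGISEQ-500. According to the submitters' processing notes, the authors used HISAT, Bowtie2, RSEM and DESeq2. The methods name DESeq2 with p under 0.05 for differentially expressed genes. Versions and a genome build are not stated in the sources used here. Values deposited by the authors are estimated counts without normalization, TPM scaled to all genes of a library, and FPKM scaled by length and library total. The deposited table also holds the authors' log2 ratio and its p-value and q-value, which were not used.

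Counts were rounded, and the 310 genes whose counts averaged 10 or more entered the quasi-likelihood test of edgeR 4.0.16 (R 4.3.3), with Benjamini-Hochberg adjustment and a threshold of 0.05. Library sizes were the relative depths, each the median of count over FPKM across 196 genes with FPKM above 5 in every library. Standard errors were derived from the F statistic of each gene. On simulated data for P6 against P56 (310 genes), 99% of 100 genes changed by a log2 of 1 and 92% of 100 changed by 0.5 were recovered, and 2 of 110 other genes were called. The simulation gave every gene the same dispersion of 0.01 and held no outlying library such as P56 replicate 3. Changes smaller than 0.5, such as those of *Actg1*, *Actn4* and *Pls3*, were not simulated. Alternatives were other library sizes, DESeq2 1.42.0, limma 3.58.1 on log2(TPM + 1) or log2(TPM + 0.1), other filters, a replicate block and each library left out. Named genes were the 3 genes, the listed genes of the actin cytoskeleton, of which 1 is counted but not reported here, and the 3 nearest patterns of each. Members, lists and the scaling were chosen with earlier results of these data known. Marker lists for endothelium, lymphocytes, epithelium and proliferation had none of their genes in the table.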

Additional observations from a re-analysis of the deposited data

How the results depend on the processing

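With equal library sizes the log2 fold change was 0.29 for *Actg1*, 0.55 for *Actn4* and 0.35 for *Pls3*, by the construction of that scaling, which does not remove the deeper sequencing at P6. Over the whole table it called 148 genes higher and 34 lower, in place of 94 and 105 at the recovered depth. Median-of-ratios size factors gave 0.20 for *Actn4* (adjusted *p* = 0.0298, edgeR) and 0.0050 for *Pls3*, and column totals with TMM gave 0.20 (adjusted *p* = 0.0332) and 0.0087. With the replicate block, *Actn4* had 0.18 (adjusted *p* = 0.0443, edgeR) and 213 genes were called in place of 199. The deviations of same-numbered libraries had correlations of 0.097, 0.13 and 0.24 over 310 genes. The first lay just under the limit of 0.1 and the others above it, and the main fit took the libraries as unpaired. Differently numbered libraries were not compared, so these correlations cannot decide whether the replicate numbers pair the libraries. With 1 library left out at a time, the log2 fold change ranged from −0.10 to −0.053 for *Actg1*, from 0.13 to 0.23 for *Actn4* and from −0.054 to 0.030 for *Pls3*. The positive values of *Pls3* came without P6 replicate 2 and without P56 replicate 2. In these runs the listed actin cytoskeleton genes called ranged from 12 to 19, in place of 15, and genes called from 172 to 221. The ratios between genes kept their direction without each library. They also kept it on TPM and with the block, but these settings are no further check. The block leaves the mean difference of a ratio unchanged, and TPM alters a ratio by little more than gene length. Counting error at the lowest count was 0.519% for *Actg1*, 1.18% for *Actn4* and 2.68% for *Pls3*, and it covers counting only.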
